A study of Mus musculus with 6 samples.

Results

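Plasmacytoid dendritic cells are rare immune cells that patrol blood, lymphoid organs and tissues such as the liver. They sense viral nucleic acids in endosomes through Toll-like receptors and can release large amounts of type I interferon. Their identity depends on the E protein Tcf4, which is held in check in conventional dendritic cells by the inhibitor Id2. Candidate nuclei of these cells were taken from single-nucleus RNA sequencing of fasted mouse liver by their UMIs, the unique molecular identifiers that count captured RNA molecules. A nucleus had to hold at least 2 UMIs of 3 genes together. These were Siglech, a sialic acid-binding lectin of plasmacytoid dendritic cells, Ccr9, the receptor for the chemokine Ccl25, and Cox6a2, a muscle-type subunit of cytochrome c oxidase. It also had to lie under limits for hepatocyte, endothelial, macrophage, stellate and lymphocyte transcripts. The rule kept 137 nuclei of 26467 that passed the depth filters, and of 21176 that were also under the hepatocyte limit.

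The mice were male, 18 weeks old, on chow and of strain C57BL/6JBomTac, and food had been withdrawn overnight for 12 hours. One group of 3 mice had Plvap, a protein of endothelial and caveolar diaphragms, knocked out in hepatic stellate cells with a Cre transgene under Lrat regulation, and the other group were 3 littermate controls. A shared strain and transgene designation covers both groups in the labels, which leave unsaid whether controls carried Cre. Each mouse gave 1 library of 3672 to 5402 barcodes and 23153182 to 27199466 UMIs, and the p-values below measure the spread between these mice. Knockout 2 and control 1 held 38 and 52 nuclei over a hepatocyte gate, whereas the other libraries held from 414 to 674, so results are also given without these libraries. Of the filtered nuclei 74 carried a barcode found in another library, and none of these barcodes belonged to the 137. Scrublet called 805 filtered nuclei doublets, 1 of them among the 137.

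Knockout 1, 2 and 3 held 24, 20 and 28 of the 137 nuclei, and control 1, 2 and 3 held 28, 25 and 12. Siglech (ENSMUSG00000051504, chromosome 7, 55768178 to 55778925, plus strand, mm10) gave 1370 UMIs in 86 of the nuclei. Ccr9 (chromosome 9, 123678439 to 123784330, plus strand) gave 393 UMIs in 124 nuclei, and Cox6a2 (chromosome 7, 128205435 to 128206387, minus strand) gave 9 UMIs in 8 nuclei. Cox6a2 therefore chose almost none of them, and membership rested on Siglech and Ccr9. Both were read in 73 nuclei, 66 without and 7 with a Cox6a2 UMI, Siglech without Ccr9 in 13 and Ccr9 alone in 51. These values chose the nuclei and are given as a description.

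Promoters are shown for the 2 rule genes held in the RefSeq table. Those of the 2 genes with the largest ratio of pooled level in these nuclei over the other nuclei are shown beside them. The latter genes are no part of the rule and were picked from the nuclei it chose. Each stretch runs from 250 bases before to 50 bases after an annotated start (RefSeq, GRCm38.p6), 5′ to 3′ on the strand of the gene. Capitals mark CAGGTG or its reverse complement CACCTG, a hexamer that E proteins such as Tcf4 are known to bind. Siglech is shown from chr7:55767934-55768233 (plus strand), Ccr9 from chr9:123766961-123767260 (plus strand), Havcr1 from chr11:46739973-46740272 (plus strand, the most upstream start) and Cd300c from chr11:114960458-114960757 (minus strand).
Siglech: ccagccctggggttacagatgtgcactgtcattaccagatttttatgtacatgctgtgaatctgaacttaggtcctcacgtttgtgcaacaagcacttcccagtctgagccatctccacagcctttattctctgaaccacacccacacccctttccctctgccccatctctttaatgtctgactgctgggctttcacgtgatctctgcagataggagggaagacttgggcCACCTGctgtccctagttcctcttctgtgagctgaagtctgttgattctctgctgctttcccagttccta
Ccr9: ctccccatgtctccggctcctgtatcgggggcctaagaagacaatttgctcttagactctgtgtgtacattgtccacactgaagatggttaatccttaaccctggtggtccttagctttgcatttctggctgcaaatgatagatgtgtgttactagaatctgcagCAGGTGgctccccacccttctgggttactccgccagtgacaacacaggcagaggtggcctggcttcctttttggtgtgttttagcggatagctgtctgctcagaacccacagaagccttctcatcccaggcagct
Havcr1: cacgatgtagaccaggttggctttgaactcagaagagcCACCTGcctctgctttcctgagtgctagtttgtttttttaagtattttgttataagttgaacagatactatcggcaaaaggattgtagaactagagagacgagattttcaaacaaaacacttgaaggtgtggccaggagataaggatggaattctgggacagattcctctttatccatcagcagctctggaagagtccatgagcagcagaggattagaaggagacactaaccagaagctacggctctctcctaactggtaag
Cd300c: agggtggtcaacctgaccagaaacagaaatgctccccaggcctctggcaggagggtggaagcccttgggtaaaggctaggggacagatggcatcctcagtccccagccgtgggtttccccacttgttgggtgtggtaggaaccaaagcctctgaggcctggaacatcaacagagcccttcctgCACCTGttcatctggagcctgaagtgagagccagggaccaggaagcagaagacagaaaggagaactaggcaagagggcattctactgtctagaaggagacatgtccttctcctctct

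Each of these 4 stretches held 1 match, whose first base lay at -20 in Siglech, -85 in Ccr9, -212 in Havcr1 and -67 in Cd300c, counted from the start. Over the genes named below by ratio, 20 of 25 were in the table, with 26 promoters, and 7 of these (26.9%) held the hexamer, against 20.2% of all 32851 promoters of the same length. The looser form CANNTG, which contains the hexamer and reads the same on both strands, was in 19 of the 26 and in 72.3% of all promoters. A match is a stretch of letters and no measurement of binding.

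The 137 nuclei did not form a single expression group. The 86 nuclei with a Siglech UMI (18, 11 and 20 in knockouts 1, 2 and 3, and 15, 16 and 6 in controls 1, 2 and 3) carried the transcription factors and surface genes known from plasmacytoid dendritic cells. The 51 nuclei without one (6, 9 and 8 in knockouts, and 13, 9 and 6 in controls) held most of these genes at lower levels. Tcf4 had a median of 39.5 UMIs per nucleus, from 1 to 106, in Siglech-positive nuclei. In Siglech-negative nuclei its median was 1 UMI, and all of these but 1 nucleus with 24 held at most 7. Markers outside the rule thus went with the label in the Siglech-positive nuclei and not in the others, which are left unnamed. The marker lists were chosen with earlier results of these data known, so this is a description and no independent check. The division by Siglech was chosen after the values were seen, and differences across it are described without a test.

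**Figure D1:**
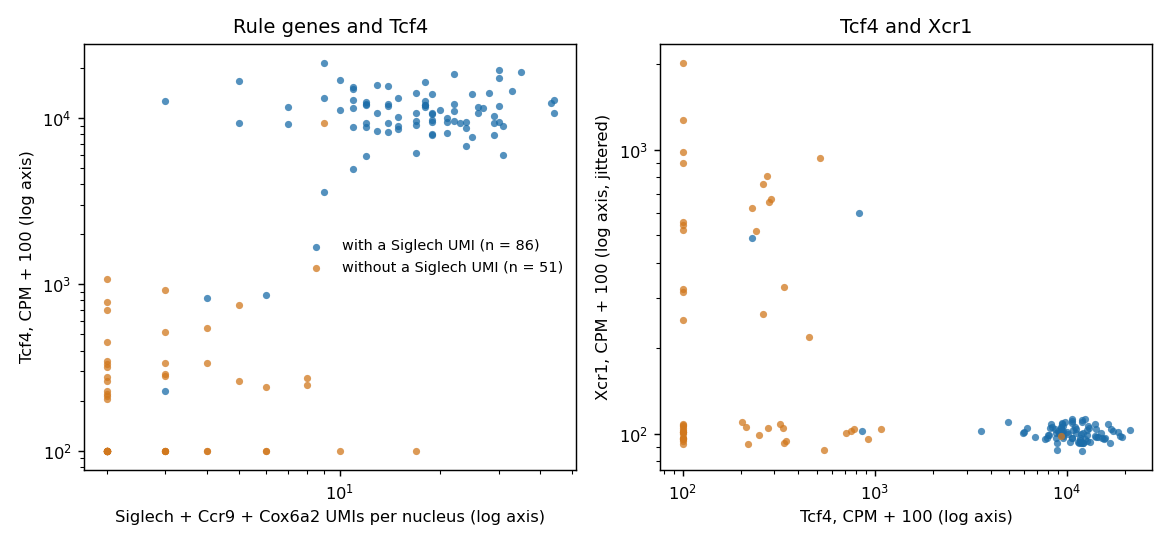
Each point is 1 of the 137 nuclei, with the UMIs of the rule genes against Tcf4 (left) and Tcf4 against Xcr1 (right), in CPM (UMIs scaled to a common total per nucleus) plus 100 on log axes. Blue points, the 86 nuclei with a Siglech UMI, lie mostly at high Tcf4, and orange points, the 51 without one, lie at low Tcf4 with the exception of 1 nucleus.

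The counts around the threshold follow in part from the rule, since Siglech UMIs are among those it counts. Of 28 nuclei with exactly 2 rule UMIs none had a Siglech UMI, and of 11 nuclei with 3 rule UMIs 2 did. Of 24 nuclei with 4 to 10 rule UMIs 11 had one, and of the 74 nuclei with 11 or more, up to 44, 73 had one. Just outside the rule, 121 nuclei held 1 rule UMI, which was Ccr9 in 115, Siglech in 5 and Cox6a2 in 1. Those 121 had Tcf4 at 270 CPM, close to the 234 CPM of the Siglech-negative nuclei. A further 11 filtered nuclei with at least 2 Siglech UMIs were kept out by the other limits, 5 by hepatocyte and 6 by endothelial, macrophage or stellate transcripts, and 7 of the 11 were called doublets.

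Levels in the following are pooled CPM, the UMIs of a gene scaled to 1e6 UMIs of all genes summed over a set of nuclei, and they compare a gene between sets and not genes with each other. The Siglech-positive set held 331536 UMIs with a median of 3653 per nucleus, so that 1 UMI was worth 3.02 CPM. The Siglech-negative set held 299328 UMIs with a median of 5053, and the other 21039 filtered non-hepatocyte nuclei had a median of 3932. Because the same nuclei were chosen by their RNA, a contrast with the other nuclei is a description.

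The transcription factors of the lineage were present in the Siglech-positive nuclei of every mouse, with Spib apart. Tcf4, the E protein on which the cell fate depends, was at 10610, 11200 and 10800 CPM in knockouts 1, 2 and 3 and at 10130, 10740 and 7778 CPM in controls 1, 2 and 3. In the other nuclei it lay between 1002 and 1117 CPM per mouse, and it had a UMI in 86 of 86 Siglech-positive nuclei. Every mouse thus had Tcf4 higher in these nuclei than in the rest, and the knockout and control ranges overlapped.

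Runx2, needed in mice for plasmacytoid dendritic cells to leave the bone marrow, was at 6985, 6198 and 5997 CPM in Siglech-positive nuclei of the knockouts and at 7029, 5905 and 4645 CPM in those of the controls. The other nuclei had 34.8 to 46.9 CPM. Bcl11a, a zinc finger factor required for the lineage, was at 2940, 2489 and 3379 CPM in knockouts and at 3098, 3520 and 2053 CPM in controls, against 17.8 to 40.9 CPM in the other nuclei. For both genes the lowest mouse was control 3, which had only 6 Siglech-positive nuclei. Irf8, an interferon regulatory factor of dendritic cells, was at 2909, 2321 and 2492 CPM in knockouts and at 2179, 2872 and 2305 CPM in controls, against 63.5 to 94.1 CPM in the other nuclei. None of these 3 genes separated knockout from control mice.

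Spib, an Ets factor that works with Tcf4, was sparse, with 34 UMIs in 28 of the 86 nuclei (103 CPM, against 6.68 CPM in Siglech-negative nuclei and 1.22 CPM in the other nuclei). Control 3 had none. Zeb2, which supports commitment to the lineage, was at 2307 CPM in Siglech-positive nuclei, near the 2336 CPM of the other nuclei, with 4844 CPM in the macrophage gate and 3004 CPM in the stellate gate, and far from the 86.9 CPM of Siglech-negative nuclei. Irf7, the factor that drives interferon genes after sensing, was at 106 CPM in Siglech-positive, 23.4 in Siglech-negative and 35.7 in the other nuclei. Of the 20 listed factors 17 had at least 20 UMIs in the Siglech-positive set, and 13 of these were at least 2-fold above the other nuclei, where 27.6% of the 3642 genes with 20 UMIs were. Ets1, at 172 against 605 CPM, ran the other way.

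An inhibitor of E proteins and named factors of conventional dendritic cells were lower in Siglech-positive nuclei than in Siglech-negative or the other nuclei. Id2, which binds E proteins and blocks them, was at 18.1 CPM in Siglech-positive nuclei, 297 CPM in Siglech-negative nuclei and 44.4 CPM in the other nuclei. Zbtb46, a factor of conventional dendritic cells and endothelium, was at 21.1, 401 and 355 CPM in these sets. Batf3, needed for type 1 conventional dendritic cells, was at 3.02, 127 and 42.7 CPM. Of the 11 listed factors and inhibitors, 2 reached 20 UMIs in the Siglech-positive set, too few to set against the 27.6% of all genes. Of these 2, 0 was 2-fold above the other nuclei. In the Siglech-negative set 6 reached 20 UMIs and 3 of these were 2-fold above, beside 25.1% of all genes.

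**Figure D2:**
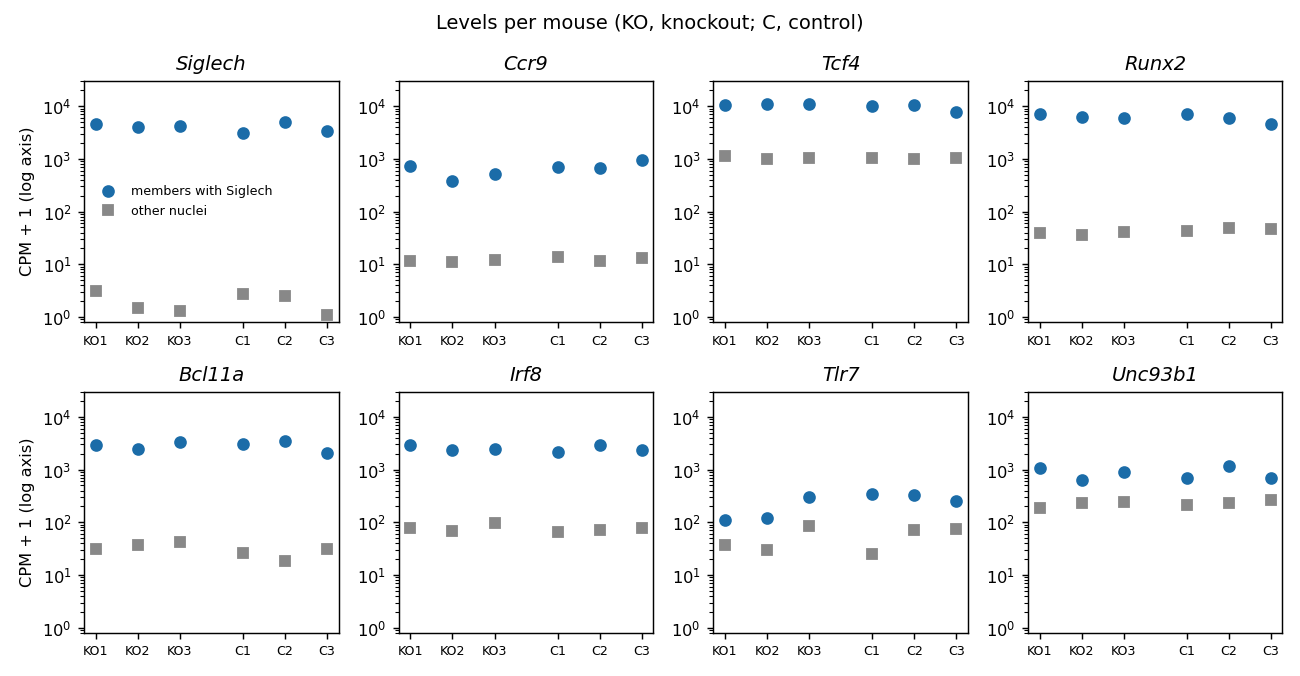
Levels of 8 genes per mouse, in CPM plus 1 on a log axis, in Siglech-positive nuclei (blue circles) and in the other filtered non-hepatocyte nuclei (grey squares), with the 3 knockout mice left of the 3 controls. In all 8 genes the circle of each mouse lies above its square, and the ranges of knockout and control circles overlap. Siglech and Ccr9 chose the nuclei, so their levels are only a description.

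Shares of nuclei with a UMI were compared after thinning each nucleus to 1000 UMIs, which left out no nucleus. Tcf4 was then found in 97.7% of Siglech-positive nuclei, 17.6% of Siglech-negative nuclei and 13.7% of hepatocyte-gate nuclei, taken as background. Without thinning these shares were 100%, 51.0% and 71.1%, at median depths of 3653, 5053 and 10759 UMIs. The Tcf4 share of Siglech-negative nuclei thus lay near that of hepatocyte nuclei once depth was equal. Thinned Bcl11a shares were 91.9%, 17.6% and 0%, and thinned Irf8 shares 91.9%, 31.4% and 0.0478%, so that for these 2 genes the Siglech-negative share was above the hepatocyte one.

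Genes high in the 137 nuclei were then named by ratio. Of 2425 genes with at least 20 UMIs and 100 CPM in the set, 114 (4.7%) were at least 8-fold above the other nuclei and above them in all 6 mice. Taking the Siglech-positive nuclei alone gave 185 such genes. Against the B, T, conventional dendritic and macrophage gates together, in place of all other nuclei, the count was 110.

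Havcr1 (also called Tim1), a phosphatidylserine receptor, had 74 UMIs in the 137 nuclei, at 117 CPM against 0.0878 CPM in the other nuclei, a ratio of 1336. In Siglech-positive nuclei it was at 202, 239 and 183 CPM in knockouts 1, 2 and 3 and at 221, 221 and 324 CPM in controls 1, 2 and 3. Cd300c, an activating receptor of the CD300 family, was at 793, 694 and 817 CPM in those of the knockouts and at 596, 707 and 504 CPM in those of the controls. Both were found in every mouse, and the groups overlapped in both. Klra17 (Ly49Q), an inhibitory receptor of mouse plasmacytoid dendritic cells, was at 419 CPM in Siglech-positive nuclei, 3.34 CPM in Siglech-negative nuclei and 1.997 CPM in the other nuclei.

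Grm8, a metabotropic glutamate receptor, was at 5492, 4547 and 5420 CPM in Siglech-positive nuclei of the knockouts and at 4408, 5081 and 4717 CPM in those of the controls. The other nuclei had 6.53 CPM and the hepatocyte gate 221 CPM. The glutamate receptor subunit Gria3 was at 1207 CPM in Siglech-positive nuclei against 5.70 CPM in the other nuclei, the calcium channel subunit Cacna1e at 2157 against 12.4 CPM, the reelin receptor Lrp8 at 443 against 0.669 CPM and the GTPase-activating protein Srgap3 at 1686 against 16.8 CPM. Pacsin1, a membrane-bending adaptor with a part in interferon release by these cells, was at 1104 against 5.07 CPM. The olfactory receptor gene Olfr164 was at 1143 against 1.503 CPM, the magnesium transporter Slc41a2 at 1487 against 10.9 CPM and the noncoding RNA Eldr at 597 against 1.35 CPM.

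The other named genes with the same arrangement were Rgs18, Spns3, Pdzd4, Smim5, Jaml, St8sia1, Mctp2 and Adam11, whose pooled ratios over the 137 nuclei ran from 54.6 to 106. Not all 25 belonged to the Siglech-positive nuclei. Xcr1, the chemokine receptor that marks type 1 conventional dendritic cells, was at 15.1 CPM in Siglech-positive and 200 CPM in Siglech-negative nuclei. Htr7, a serotonin receptor, was at 12.1 and 200 CPM. Flt3, the receptor for the growth factor on which all dendritic cells depend, was shared, at 543 and 438 CPM, with 2.67 CPM in the other nuclei and 427 CPM in the conventional dendritic gate.

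**Figure D3:**
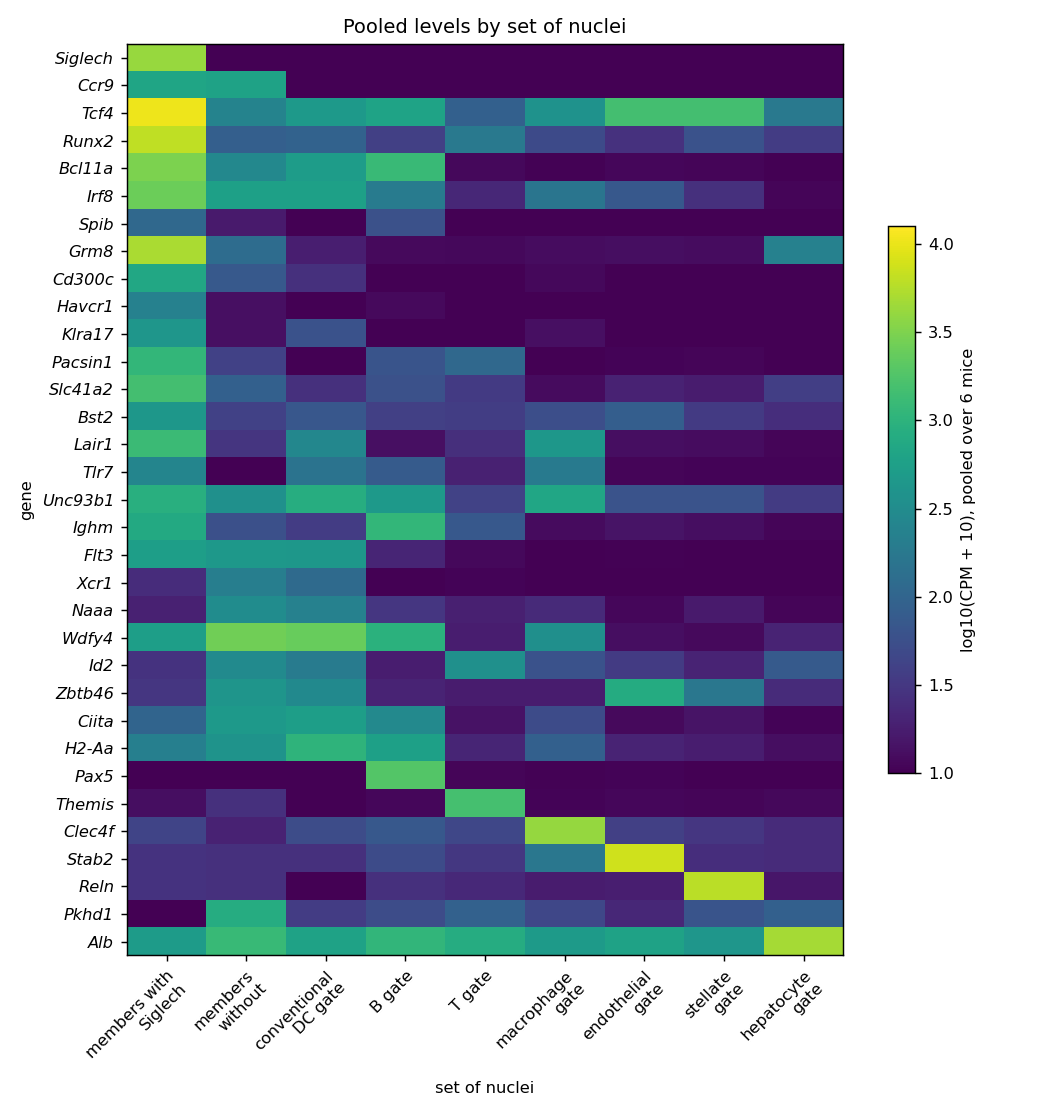
Pooled levels of 33 genes (rows) in 9 sets of nuclei (columns), coloured by log10 of CPM plus 10. The left column, Siglech-positive nuclei, holds the highest of the 9 levels in each row from Siglech to Unc93b1. Siglech and Ccr9 chose the nuclei and the gates allowed no rule UMI, so these rows are only a description. Siglech-negative nuclei share Flt3, Xcr1, Naaa, Wdfy4, Id2, Zbtb46 and Ciita with the conventional dendritic gate, which Xcr1 helped to set.

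Of 30 listed markers outside the rule, 30 had a UMI in Siglech-positive nuclei, 26 had at least 20 UMIs and 24 of the 26 were at least 2-fold above the other nuclei (27.6% of genes were). In Siglech-negative nuclei 11 had at least 20 UMIs and 8 of these passed 2-fold, where 25.1% of 3784 genes did. The summed level of the 30 was 19000 CPM in Siglech-positive nuclei, from 16190 to 20800 CPM per mouse, against 1874 CPM in Siglech-negative nuclei and 1492 CPM in the other nuclei. Bst2 (PDCA-1, a tether of budding virus that marks the lineage in mice) was at 422, 30.1 and 48.1 CPM in these 3 sets. Lair1, an inhibitory collagen receptor, was at 1291, 20.04 and 122 CPM. Ly6c2 was at 115, 6.68 and 1.43 CPM, and Cd209d at 75.4, 0 and 0.0549 CPM. The 2 members below 2-fold were Lifr, at 1324 against 675 CPM in the other nuclei, and Ctsl, at 136 against 150 CPM.

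Of the 30 listed sensing genes 28 had a UMI in Siglech-positive nuclei, and the 2 at 0 were Tlr8 and Tlr9. Tlr7, the receptor for single-stranded RNA, was at 109, 120 and 296 CPM in Siglech-positive nuclei of knockouts 1, 2 and 3 and at 340, 324 and 252 CPM in those of controls 1, 2 and 3, from 82 UMIs in all. The groups overlapped, as knockout 3 lay above control 3. Siglech-negative nuclei had 0 UMIs, which allows up to 10.0 CPM, and the other nuclei 52.0 CPM. Tlr9, the receptor for CpG DNA on which these cells are known to rely, had 0 UMIs in all 137 nuclei. Over the 86 Siglech-positive nuclei that count allows up to 9.05 CPM, or up to 3.49% of nuclei with a UMI, for counting error only.

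Unc93b1, the chaperone that carries these receptors to endosomes, was at 1089, 622 and 915 CPM in Siglech-positive nuclei of the knockouts and at 698, 1149 and 684 CPM in those of the controls. Its pooled level was 902 CPM, against 354 CPM in Siglech-negative nuclei and 226 CPM in the other nuclei. The adaptor gene 5430427O19Rik (Tasl) was at 130, 6.68 and 14.3 CPM in the 3 sets, and its partner Slc15a4, an endolysosomal transporter, at 81.4, 16.7 and 21.7 CPM. Pik3ap1, an adaptor to PI3-kinase, was at 1243, 374 and 252 CPM. Tlr3, a receptor of type 1 conventional dendritic cells for double-stranded RNA, had the reverse order, at 33.2, 277 and 30.8 CPM. Of the sensing list 17 genes had at least 20 UMIs in Siglech-positive nuclei and 11 of them were 2-fold above the other nuclei, beside 27.6% of all genes with 20 UMIs. The list summed to 5167 CPM in Siglech-positive nuclei. In the conventional dendritic, macrophage, B and T gates it summed to 5084, 5049, 3545 and 2151 CPM.

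Interferon transcripts were at or near the limit of detection. Of 25 listed interferon and receptor genes 19 were at 0 in the Siglech-positive nuclei, and among the interferons only Ifna2 was read, with 2 UMIs in control 1. The receptors were present: Ifnar2, the signalling chain for type I interferon, was at 649 CPM against 177 CPM in Siglech-negative and 217 CPM in the other nuclei, and Ifnar1, the other chain, was at 247, 70.2 and 57.9 CPM. Of 31 interferon response genes 15 had at least 20 UMIs, and 5 of these were 2-fold above the other nuclei, a share near the 27.6% of all genes. Stat2, a transducer of the receptor signal, was at 383, 174 and 146 CPM, whereas the interferon-induced genes Ifi203 and Rnf213 were at 422 and 124 CPM in Siglech-positive nuclei and at 446 and 301 CPM in the other nuclei.

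The surface and homing list held 38 genes, 21 of them with at least 20 UMIs in Siglech-positive nuclei and 18 of those 2-fold above the other nuclei, beside 27.6% of all genes with 20 UMIs. Its sum of 7833 CPM in Siglech-positive nuclei was shared with other immune nuclei. The B, conventional dendritic, T and macrophage gates had 8176, 7529, 6638 and 5537 CPM. Cd4 was at 166, 6.68 and 2.78 CPM in Siglech-positive, Siglech-negative and other nuclei, the lectin Clec10a at 226, 0 and 2.54 CPM, and the chemokine receptor Ccr2 at 169, 104 and 13.2 CPM. Btla, an inhibitory receptor, was higher in Siglech-negative nuclei, at 320, 725 and 70.2 CPM.

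Of 24 listed lymphoid genes 13 had at least 20 UMIs and 10 of these were 2-fold above the other nuclei, beside 27.6% of all genes with 20 UMIs. The list summed to 6615 CPM in Siglech-positive nuclei and to 19070 CPM in the B gate. In the T, conventional dendritic and macrophage gates it summed to 2840, 2822 and 2238 CPM. Blnk, the B cell linker, was at 715 CPM in Siglech-positive nuclei against 42.1 CPM in the other nuclei, and Ighm, the mu heavy chain, at 763 against 29.98 CPM. Dntt, the template-free polymerase of lymphoid precursors, was at 106 against 0.154 CPM. The B lineage genes Pax5, Ms4a1 and Cd79a, of which the rule limits Pax5 and Cd79a, had 0 UMIs in the Siglech-positive nuclei, and Ebf1 had 3. The summed level of 12 B cell markers was 480 CPM, against 14070 CPM in the B gate.

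Of 24 secretory genes 16 had at least 20 UMIs and 11 of these were 2-fold above the other nuclei, beside 27.6% of all genes with 20 UMIs. Atf6, a sensor of unfolded proteins, was at 585 CPM against 201 CPM in the other nuclei, Ern1, the sensor that splices Xbp1, at 341 against 122 CPM, and Xbp1 at 172 against 58.7 CPM. Of 23 antigen presentation genes 15 had at least 20 UMIs in Siglech-positive nuclei and 8 of these passed 2-fold, beside the same 27.6%. In Siglech-negative nuclei 17 had at least 20 UMIs and 10 of these passed, beside 25.1% of all genes. The antigen presentation list summed to 4000 CPM in Siglech-positive and 5466 CPM in Siglech-negative nuclei. In the conventional dendritic, B, macrophage and T gates it summed to 10870, 10480, 4880 and 3445 CPM. H2-Aa, an MHC class II chain, was at 205 CPM in Siglech-positive and 384 CPM in Siglech-negative nuclei, with 1022 CPM in the conventional dendritic gate, and Ciita, the class II transactivator, was at 90.5 and 471 CPM. Cd83, a mark of mature dendritic cells, was at 0 and 164 CPM.

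The 51 Siglech-negative nuclei entered by Ccr9 alone. A choice of genes of type 1 conventional dendritic cells was counted per nucleus: Xcr1, Flt3, Wdfy4, Naaa and Itgae. At least 3 of these had a UMI in 23 of the 51 and in 2 of the 86 Siglech-positive nuclei. The whole list of 16 conventional dendritic markers split the nuclei less sharply. At least 10 UMIs of it were found in 25 of the 51 and in 13 of the 86. Clec9a and Sirpa, also listed as conventional dendritic markers, were outside this choice and were read in Siglech-positive nuclei. There Clec9a had 95 UMIs in 45 nuclei and Sirpa 103 UMIs in 54. Wdfy4, which cross-presentation needs, was at 2649 CPM against 543 CPM in Siglech-positive nuclei, Naaa, a lysosomal amidase, at 311 against 9.05 CPM, and Itgae, the integrin chain CD103, at 311 against 30.2 CPM. The 16 conventional dendritic markers summed to 6461 CPM in Siglech-negative nuclei, close to the 6843 CPM of the 27 nuclei of the conventional dendritic gate, which was set with 3 of these markers, and to 1635 CPM in Siglech-positive nuclei. Flt3, by contrast, was at a like level in both, as given above.

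Markers listed for other lineages were read among the 51 as well. At least 10 UMIs of T and NK cell markers were found in 12 of the 51 and in 0 of the 86, of cholangiocyte markers in 7 and 0, and of hepatocyte markers in 16 and 2. The summed levels in Siglech-negative, Siglech-positive and the other nuclei were 1213, 60.3 and 1730 CPM for the 19 T and NK markers and 1627, 36.2 and 688 CPM for the 10 cholangiocyte markers. For the 12 hepatocyte markers they were 4981, 1140 and 1431 CPM. The T and NK list also summed to 2106 CPM in the endothelial gate and 1923 CPM in the stellate gate, against 10690 CPM in the T gate. Its UMIs alone therefore do not name a lineage. Its sum in Siglech-negative nuclei ran from 627 CPM in knockout 2 to 3747 CPM in control 3. The cholangiocyte sum rested on few nuclei: knockout 1 held 281 of its 487 UMIs in Siglech-negative nuclei, 1 nucleus held 197, and without knockout 1 the sum was 787 CPM. Pkhd1, a protein of biliary cilia, was at 815 CPM in Siglech-negative nuclei, from 9 of the 51, and at 0 in Siglech-positive nuclei. The hepatocyte marker sum in Siglech-negative nuclei was 8918 CPM in knockout 2 and 8059 CPM in control 1, and from 1039 to 2885 CPM in the other mice. A list of 23 hepatocyte transcripts that spread as free RNA summed to 7397, 3439 and 4613 CPM, so the Siglech-positive nuclei lay below the other nuclei in it. In Siglech-negative nuclei this sum too was highest in knockout 2 and control 1, at 11610 and 10060 CPM.

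In Siglech-positive nuclei the markers of the liver's resident cells were low. Kupffer and macrophage markers (14 genes) summed to 211 CPM against 5408 CPM in the other nuclei, endothelial markers (13 genes) to 820 against 7906 CPM and stellate markers (12 genes) to 124 against 6662 CPM, with the rule itself limiting Clec4f, Stab2, Ptprb and Reln. Plasma cell markers (7 genes) were at 190 against 82.9 CPM, but 4 of them were at 0 in Siglech-positive nuclei. Among the 7 only Txndc5, with 61 UMIs, reached 20. Monocyte and neutrophil markers (12 genes) were at 338 against 178 CPM, of which Ly6c2 and Ccr2 are given above.

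The 86 Siglech-positive nuclei varied among themselves beyond their depth. The variance of a gene over nuclei, divided by that expected from depth alone, had a median of 1.46 over 1502 genes with at least 50 UMIs. It was 12.4 for Malat1, a nuclear noncoding RNA, and 11.6 for mt-Co3, a mitochondrial transcript. Among genes of the lineage it was 8.02 for Grm8, 6.32 for Runx2, 6.20 for Zeb2, 5.82 for Tcf4 and 4.84 for Bcl11a. For Siglech and Ccr9, which the rule used, it was 3.89 and 2.88. The ratio grows with the level of a gene, so genes of unlike UMI totals, such as Tcf4 with 3457 and Ccr9 with 214, are not ranked by it. Wdfy4 stood at 6.61 and Cadm1, an adhesion molecule of type 1 conventional dendritic cells, at 7.23. These ratios were taken with the nucleus that held the most UMIs of both genes left in. It held 43 of 180 Wdfy4 and 35 of 112 Cadm1 UMIs, 9 of Flt3, 3 of Xcr1, 2 of Siglech and 1 of Tcf4, and was not called a doublet. It lay in control 3, where 43 of the 48 Wdfy4 UMIs of Siglech-positive nuclei came from it. Other Siglech-positive nuclei also had few Tcf4 UMIs. Among them, a nucleus of knockout 3 held 3 of Tcf4, 6 of Flt3 and 2 of Xcr1, and a nucleus of control 1 held 7 of Tcf4 and 21 of Flt3.

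Next, the knockout and control mice were compared. The nuclei made up 0.643%, 0.595% and 0.838% of non-hepatocyte nuclei in knockouts 1, 2 and 3 and 0.681%, 0.617% and 0.465% in controls 1, 2 and 3. The means were 0.692% ± 0.129 in knockouts and 0.588% ± 0.111 in controls (SD, n = 3 each). The difference of 0.105 percentage points had an exact permutation p of 0.5 (two-sided), where 3 against 3 mice cannot go below 0.1. Exact Clopper-Pearson 95% intervals of single libraries, for counting error only, reached from 0.241% to 0.811% in control 3 and from 0.558% to 1.21% in knockout 3. These 2 libraries were the extremes, and the difference was 0.0319 points without knockout 3 and 0.0434 points without control 3. Without knockout 2 and control 1 it was 0.2 points (exact permutation p 0.333, the smallest for 2 against 2).

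The Siglech-positive nuclei were 0.470% ± 0.136 of non-hepatocyte nuclei in knockouts and 0.331% ± 0.0864 in controls (SD, n = 3 each), values that overlap between the groups. The Siglech-negative nuclei made up 32.9% ± 10.7 of the rule's nuclei in knockouts and 44.1% ± 7.28 in controls. Shares of nuclei depend on isolation and on the depth filter and are not counts of cells in the liver.

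**Figure D4:**
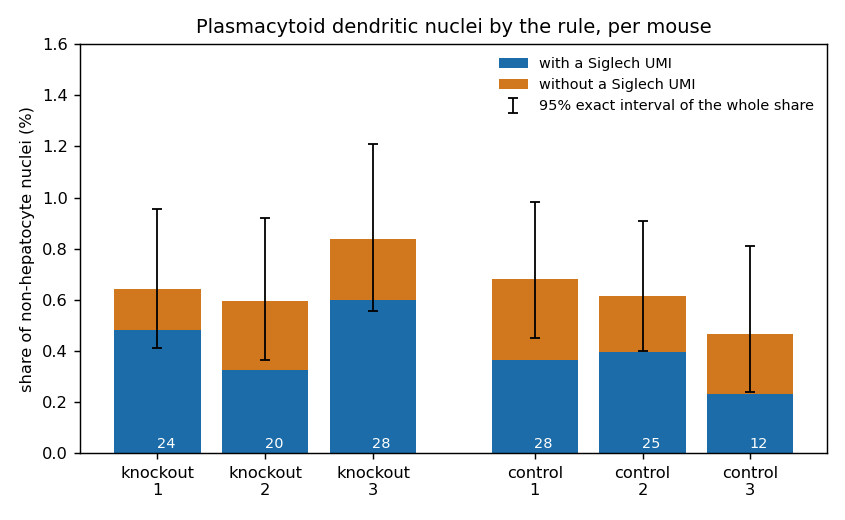
Share of non-hepatocyte nuclei (%) that met the rule in each mouse, split into nuclei with (blue) and without (orange) a Siglech UMI, with the number of nuclei inside each bar. Black lines are exact 95% binomial intervals of the whole share, and those of the 3 knockouts on the left overlap those of the 3 controls.

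Plvap, the deleted gene, had 3 UMIs in the 137 nuclei, all in control 1, so these nuclei cannot check the deletion. In the other non-hepatocyte nuclei it was at 57.2, 42.2 and 34.3 CPM in knockouts and at 57.9, 53.8 and 62.0 CPM in controls. These other nuclei included 6847 of the endothelial gate and 3117 of the stellate gate, whereas the knockout was made in stellate cells. A 3′ tag or intronic read can also lie outside a deleted part, so neither level checks the labels.

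No gene of the 137 nuclei differed between knockout and control mice past the threshold. edgeR's quasi-likelihood test on counts summed per mouse called 0 of 2790 genes (0.0%) at an adjusted p of 0.05, with 57 genes at an unadjusted p under 0.05. DESeq2 also called 0, with 13 genes at an unadjusted p under 0.05. In 219 genes, or 7.85% of those tested, all 3 knockouts lay on the same side of all 3 controls. In simulated counts of the same depth the test recovered 67 of 100 genes changed 4-fold and 80 of 100 changed 8-fold, so part of such changes would be missed at this depth, and smaller ones were not simulated.

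The lineage genes did not separate the groups, on a scale of CPM of the tested genes after TMM scaling. Tcf4 averaged 8489 ± 1971 in knockouts and 6994 ± 1632 in controls (SD, n = 3 each), with a log2 fold change of 0.28 (SE 0.271, edgeR adjusted p 1.00). Runx2 was at 0.28 (SE 0.289) and Tlr7 at -0.60 (SE 0.505). Siglech, at 0.31 (SE 0.34), and Ccr9, at -0.16 (SE 0.262), chose the nuclei, so their values are only a description. Of the 30 lineage markers 21 were tested and 17 were positive, with a median log2 fold change of 0.25, and of the 20 lineage factors 14 were tested and 8 were positive, with a median of 0.05, where all 2790 genes had a median of 0.01. None of the markers or factors was called. The share of Siglech-positive nuclei, given above, moved the same way as the marker list, and its part in these values was not tested.

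Interferon response genes did not separate the groups. Of 31 listed 10 were tested, 6 were positive and 0 were called, with a median log2 fold change of 0.03 beside 0.01 over all genes. As mean deviations of log2 CPM over these genes, knockouts 1, 2 and 3 were at -0.06, 0.02 and 0.16 and controls 1, 2 and 3 at -0.0044, -0.13 and 0.01, so the groups overlapped. Without knockout 1 the median was 0.31, without knockout 3 it was -0.035, and without knockout 2 and control 1 it was 0.19. Rnf213, a ubiquitin ligase on the list, was at 165, 249 and 191 CPM in knockouts and at 84.7, 82.5 and 124.9 CPM in controls, a log2 fold change of 1.10 (SE 0.43) with an edgeR adjusted p of 1.00.

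Genes with the smallest unadjusted p are named as not passing. Rad51b, a recombination repair gene, was at 247, 223 and 216 CPM in knockouts 1, 2 and 3 and at 476, 883 and 525 CPM in controls 1, 2 and 3, a log2 fold change of -1.46 (SE 0.326, edgeR adjusted p 1.00). Atxn10 was at 124, 131 and 102 CPM in knockouts and at 296, 294 and 350 CPM in controls (-1.38, SE 0.376). The noncoding RNA Mir99ahg was at 82.5, 39.4 and 114 CPM in knockouts and at 265, 353 and 275 CPM in controls (-1.90, SE 0.452). In each the groups did not overlap. Mir99ahg came from Siglech-negative nuclei with 81 of its UMIs and from Siglech-positive ones with 3, and the part of the differing mix of nuclei in its value was not tested. Kpna4, an importin, was at -0.87 (SE 0.29) and Sec11a, a signal peptidase subunit, at -1.34 (SE 0.454).

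Upward, Rab11fip2, an effector of recycling endosomes, was at 220, 184 and 203 CPM in knockouts and at 74.1, 47.1 and 74.9 CPM in controls, a log2 fold change of 1.63 (SE 0.461, edgeR adjusted p 1.00). Entpd1 (CD39), an enzyme that degrades extracellular ATP, was at 426, 368 and 407 CPM in knockouts and at 222, 236 and 225 CPM in controls (0.81, SE 0.311). Both ranges were apart by more than the spread within each group, yet neither passed over 2790 genes. Appbp2 was at 1.36 (SE 0.453), the reader of methylated RNA Ythdc1 at 1.22 (SE 0.45) and the telomerase-associated Tep1 at 1.17 (SE 0.45).

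**Figure D5:**
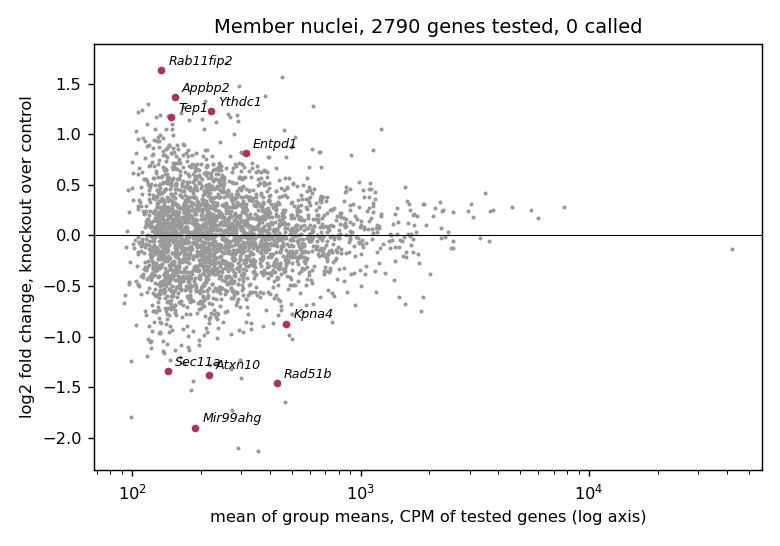
Log2 fold change of knockout over control against mean level, in CPM of tested genes on a log axis, for the 2790 genes tested in the 137 nuclei. The 10 labelled points are the genes of smallest unadjusted p in each direction, and 0 genes passed the adjusted threshold.

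Hepatocyte transcripts differed between libraries. Of 23 free hepatocyte RNAs 19 were tested and 15 were positive, with a median log2 fold change of 0.30, and of 12 hepatocyte markers 7 were tested and 6 were positive, with a median of 0.70. None of either list was called. The hepatocyte markers summed to 1740, 6059 and 1652 CPM in the 137 nuclei of knockouts 1, 2 and 3 and to 4911, 989 and 1060 CPM in those of controls 1, 2 and 3, so knockout 2 and control 1 stood highest. In Siglech-positive nuclei alone the sums were 1073, 1364 and 1633 CPM in knockouts and 783, 884 and 1080 CPM in controls, and there knockout 1 lay below control 3. Without knockout 2 and control 1, edgeR called 0 of 2743 genes, with 80 at an unadjusted p under 0.05. The part of these transcripts in the other values was not tested.

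Other lists had few tested members and 0 calls. Surface genes had 17 tested and a median of 0.18, nucleic acid sensing 14 and 0.02, antigen presentation 14 and 0.22, secretory genes 10 and -0.15, lymphoid genes 9 and 0.27, and interferons with receptors 5 and -0.26. Conventional dendritic markers had 7 tested and a median of 0.07, their factors 4 and -0.35, and genes of mTOR, lipid and nutrient use 11 and -0.06. Unc93b1, named above, was at 0.04 (SE 0.338).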

How the data were processed

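Nuclei of 6 livers, 3 knockout and 3 control, were profiled with version 3.1 of the 10x Genomics 3′ chemistry, as the labels' protocols state. The authors deposited UMI counts without normalization, 1 matrix of 32285 features per library, per the file headers. Cell Ranger 7.0.1 and mm10 are named in the submitters' processing notes, whereas the file headers name version 7.1.0. No source used here states how introns and strand were counted. Library depth was 23153182 to 27199466 UMIs. Some listed genes are not reported here.

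Nuclei were kept with at least 500 genes, 1000 UMIs and under 5% mitochondrial UMIs. The set further needed Apob, Cps1, Abcb11 and Mat1a together under 0.3% of UMIs, at least 2 UMIs of Siglech, Ccr9 and Cox6a2, at most 2 of Stab2, Ptprb, Clec4f and Reln and at most 1 of Pax5, Cd79a and Themis. Comparison gates used markers of each lineage, 3 or more UMIs (2 for conventional dendritic cells), with no rule UMI, and the hepatocyte gate at least 1% of UMIs of its 4 genes. Doublets were called with scrublet (scanpy 1.11.5, expected rate 0.06) and left in, and leaving them out was an alternative. How many mixed nuclei the marker limits remove was not measured. UMIs were summed per mouse and tested with edgeR 4.0.16 (quasi-likelihood, TMM, filterByExpr, R 4.3.3), Benjamini-Hochberg adjusted over all tested genes at 0.05, with DESeq2 1.42.0 as an alternative. The procedure was tested on simulated data of 2790 genes, with 5 false calls among those left unchanged. Shares were compared with exact permutation tests over mice. Gene positions are of GENCODE M21 on mm10.

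The rule, its members and the 25 gene lists were chosen with earlier results of these data known. Of the listed genes, Sting1 and Marchf1 are missing from the features under those symbols. Named were the rule genes, Plvap, the 25 genes of largest ratio with a named symbol, members of lists, and up to 5 genes per direction of smallest unadjusted p where none passed. Single members of lists were also named after their values were seen, to show the range.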

Additional observations from a re-analysis of the deposited data

How the results depend on the processing

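The share difference kept its sign under every alternative run: 0.116 points with at least 3 rule UMIs, 0.132 with thinned nuclei, 0.0966 of all filtered nuclei, 0.117 without called doublets, and 0.0319 to 0.153 leaving out a mouse. Called genes stayed at 0 with DESeq2, its size factors, stricter membership, doublets or any mouse left out. With no low-count filter 2 of 16222 genes were called lower, Cdh13 (0 UMIs in knockouts, and 1, 22 and 2 in controls) and Fgf13 (2, 0 and 0 in knockouts, and 30, 0 and 15 in controls), each resting on few libraries. High genes numbered 160 with at least 3 rule UMIs, 118 without doublets, 104 to 124 leaving out a mouse, 147 without knockout 2 and control 1, and 185 in Siglech-positive nuclei; the last 2 settings were chosen after seeing the data. The interferon response median was 0.17 with no low-count filter, 0.19 without knockout 2 and control 1, and -0.035 to 0.314 leaving out a mouse; the cause was not tested. No paired analysis was possible because replicate numbers were given in accession order and pair no mice. The set held 12 to 28 nuclei per mouse, and changes under 4-fold were not simulated.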

Other observations

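Srebf2, a transcription factor that activates sterol genes, was at 256 CPM in Siglech-positive nuclei against 47.1 CPM in the other nuclei, in pooled CPM. Ppara, a nuclear receptor of fasting hepatocytes, had 0 UMIs in Siglech-positive nuclei against 80.2 CPM in the other nuclei and 484 CPM in Siglech-negative nuclei. Of 30 listed genes of mTOR, lipid and nutrient use 12 had at least 20 UMIs and 4 of these were 2-fold above the other nuclei, a share near the 27.6% of all genes. In Siglech-negative nuclei this list summed to 5756 CPM in knockout 2 and 6372 CPM in control 1, and to 1818 to 2823 CPM in the other mice.

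Apart from Cox6a2, at 27.2 CPM in Siglech-positive nuclei against 0.0658 CPM in the other nuclei, the cytochrome oxidase list showed little contrast, with its ubiquitous counterpart Cox6a1 at 42.2 against 30.5 CPM. Proliferation genes (15 listed) summed to 15.6, 0 and 42.2 CPM in Siglech-positive nuclei of knockouts 1, 2 and 3 and to 391, 14.7 and 36.0 CPM in those of controls 1, 2 and 3, so control 1 held most of their UMIs, and without it the pooled sum was 22.0 CPM in place of 87.5. Immediate early and isolation stress genes (20 listed) summed to 452 CPM in Siglech-positive nuclei and 566 CPM in the other nuclei.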
